A study of Mus musculus with 38 samples.

Results

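*Bhlhe40* and 9 genes of the circadian clock (*Bhlhe41*, *Per1*, *Per2*, *Per3*, *Cry1*, *Cry2*, *Arntl*, *Clock* and *Nr1d1*) were read from the counts of cells collected as dentate gyrus (DG) granule cells. They were chosen by symbol, and all 10 were found among the 23420 genes counted. The libraries came from male adult C57BL/6J mice carrying *Arc*::dVenus, a transgene in which the promoter of the immediate early gene *Arc* drives a destabilized fluorescent protein. Every mouse carried the reporter, so a dVenus+ cell is one in which the *Arc* promoter had recently been active, and a dVenus- cell is a neighboring granule cell without visible fluorescence. From each mouse, the contents of 10 cells of either kind were drawn up through a patch pipette, and each kind was sequenced as 1 pool. There were 12 fear conditioned (FC) mice and 4 no-shock (NS) mice, both taken 24 h after training, and 3 home-cage (HC) mice, in 38 libraries. FC mice heard tones in a new context, each ending with a foot shock. NS mice went through the same protocol without shocks, and HC mice stayed in their home cage. The design text counts 14 FC mice, and the others were not analysed here. The comparison asked whether cells with an active *Arc* promoter differed from their neighbors in the same mouse. All mice were kept on a light/dark cycle and used in the light phase. The clock time at which each mouse was taken is not given in the sources used here, but both pools of a mouse came from the same animal. In a pool of cells, fewer cells with a transcript and less of it per cell cannot be told apart.

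The circadian clock is a feedback loop of transcription. The activators CLOCK and BMAL1 (the product of *Arntl*) bind E-boxes and switch on *Per* and *Cry* genes, whose proteins return to the nucleus and inhibit their own activators. A second loop runs through REV-ERBα (the product of *Nr1d1*), which represses *Arntl*, and clock output passes through D-box factors such as DBP, TEF and HLF. BHLHE40 and BHLHE41 (DEC1 and DEC2) bind the same E-boxes as repressors, and *Bhlhe40* is also known as a gene that responds to neuronal activity and other stimuli. Outside the master clock of the hypothalamus, the hippocampus carries a clock of its own.

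The promoters show which of these genes carry the letters that the loop reads. RefSeq promoters of the GRCm38.p6 build, from 250 bases before to 50 after a start site, were found for 8 of the 10 genes, not for *Bhlhe40* and *Per2*. The E-box CACGTG, which reads the same on both strands, stood in the promoters of *Bhlhe41*, *Per1* and *Cry1* among the 10 genes, and in 7.15% of all 32851 promoters. The D-box TTANGTAA occurred at 2 places in the *Per3* promoter and in 2.32% of all promoters, and the E-box variant CACGTT was found in *Cry1*, *Cry2* and *Nr1d1* and in 4.68% of all promoters. The nuclear receptor half-site AGGTCA, found in 16.3% of all promoters, stood in *Per1*, *Arntl* and *Clock*. The cyclic AMP response element TGACGTCA, found in 1.79% of promoters, stood in none of the 8 genes but in that of *Hlf*, described further on with *Tef*, whose promoters hold an E-box. A gene was named if any of its promoters held the motif, while the percentages count single promoters. *Per1* and *Arntl* have 2 promoters each and *Clock* has 3. Both strands were searched, and a match describes letters, not a bound site. The windows below are those of genes described in the results, 5′ to 3′ along the gene, with the motif in capitals.
*Bhlhe41*, chr6:145865557-145865584, - strand, E-box: ggtacgttccgCACGTGagctgggtgct
*Per1*, chr11:69098772-69098799, + strand, E-box: gcacccaagtcCACGTGcagggatgtgt
*Cry1*, chr10:85185098-85185125, - strand, E-box: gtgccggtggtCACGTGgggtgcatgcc
*Tef*, chr15:81802535-81802562, + strand, E-box: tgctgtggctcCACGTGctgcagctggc
*Nr1d1*, chr11:98775389-98775416, - strand, E-box variant on the other strand: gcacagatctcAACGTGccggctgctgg
*Per3*, chr4:151044852-151044881, - strand, first D-box: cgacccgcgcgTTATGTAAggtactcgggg
*Per3*, chr4:151044805-151044834, - strand, second D-box: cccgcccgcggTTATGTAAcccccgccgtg
*Hlf*, chr11:90390908-90390937, - strand, cyclic AMP response element: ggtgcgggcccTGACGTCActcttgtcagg

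The libraries held between 1352288 and 18394761 counts on genes, with a median of 8013005. Values are CPM, counts scaled to the total on genes. *Arc* itself was higher in dVenus+ cells of 12 of 12 FC, 4 of 4 NS and 3 of 3 HC mice, with a log2 fold change of 9.98 ± 1.41 (SE, n = 12 mice) in FC (adjusted p = 0.00099 in the edgeR quasi-likelihood test). Its values overlapped all the same, since the dVenus- pool of FC mouse 14 held 276 CPM of *Arc* and the FC dVenus+ pools began at 238 CPM. The dVenus- pools of FC mice 6 and 7 held 143 and 59.5 CPM, below every FC dVenus+ pool. A dVenus- label means no visible fluorescence, so it does not exclude *Arc* RNA. The other 9 FC dVenus- pools had at most 1.97 CPM. Clock genes called in FC are therefore also given without mice 6, 7 and 14, while *Arc* and the marker genes are not. Of the 5 granule cell markers *Prox1*, *Calb1*, *Dsp*, *C1ql2* and *Pdzd2*, none was at 0 in every library of a group. Their summed level ran from 66.6 to 1188 CPM in FC dVenus+ libraries (median 360.0) and from 406 to 2482 in FC dVenus- libraries (median 1139), and was lower in the dVenus+ pool of 12 of 12 FC mice. Of the 5 markers 4 had a log2 fold change below 0 in FC, and *Calb1*, which codes for calbindin, was called lower (-3.14 ± 0.58, SE, n = 12 mice; adjusted p = 0.0100 in edgeR). The other way went *Pdzd2*, at 1.99 ± 0.57 (adjusted p = 0.0947), which the newer edgeR method, described with *Bhlhe40*, called higher (adjusted p = 0.0278). The same method called *Calb1* (adjusted p = 0.00055) and *C1ql2* (-2.02 ± 0.48, adjusted p = 0.0128) lower, where it called 2.84% of all genes lower. The summed level of 12 microglial markers was higher in dVenus+ cells of 10 of 12 FC mice, at medians of 313 against 70.9 CPM (ranges 59.2 to 2686 and 3.88 to 1334). Of the 10 microglial markers that passed the filter none was called in FC by the main edgeR test, and 5 were higher at an unadjusted p under 0.05. On the higher side 4.17% of all genes tested had such a p. The newer edgeR method called 4 of the 10 markers higher, *C1qa*, *C1qc*, *Csf1r* and *Aif1* (adjusted p 0.0146 to 0.0392), where it called 1.5% of all genes higher. Astrocyte, oligodendrocyte and interneuron markers summed higher in dVenus+ cells of 3, 4 and 3 of the 12 FC mice, and those of oligodendrocyte precursors, endothelium and hilar mossy cells in 7, 2 and 9. Medians of the first 3 sums were 174, 493 and 66.7 CPM in FC dVenus+ and 229, 669 and 173 CPM in FC dVenus- pools. In NS dVenus+ pools the granule cell, microglial, astrocyte and oligodendrocyte medians were 184, 414, 844 and 1036 CPM. In NS dVenus- pools they were 1030, 15.6, 677 and 1389 CPM. In HC they were 107, 534, 529 and 622 CPM in dVenus+ and 1092, 380, 523 and 1526 CPM in dVenus- pools. The lists differ in length, so the sums are not shares of cell types. The part of these shifts in the results that follow was not tested.

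*Bhlhe40* was much lower in dVenus+ than in dVenus- cells after FC. In the 12 FC dVenus+ libraries its level ran from 0 to 45.8 CPM with a median of 0.619, and in the 12 dVenus- libraries from 0.0829 to 219 CPM with a median of 49.9. At least 10 counts were found in 4 of 12 dVenus+ and 11 of 12 dVenus- libraries. *Bhlhe40* was lower in the dVenus+ pool of 11 of 12 mice. The exception was mouse 9, whose dVenus+ pool had the highest *Bhlhe40* level of its group (45.8 CPM, 215 counts) and whose dVenus- pool the lowest (0.0829 CPM, 1 count). With that mouse set aside, 9 dVenus+ libraries lay under the lowest dVenus- library and those of mice 11 and 13 above it, so that the groups still overlapped. The log2 fold change in the paired fit was -5.50 ± 1.33 (SE, n = 12 mice), with an adjusted p of 0.0445 (edgeR, Benjamini-Hochberg over 9709 genes). It was the only one of the 10 genes called at an adjusted p under 0.05 and an absolute log2 fold change over 1, where 137 of all 9709 genes tested, or 1.41%, were called, 0.577% higher and 0.834% lower. On the scale of log2(CPM + 1) the mean difference within mice was -3.76 ± 3.18 (SD, n = 12), with p = 0.00488 in a two-sided exact sign-flip permutation test whose smallest p is 0.000488.

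The call of *Bhlhe40* sat near its threshold, while its direction and size did not depend on any single mouse. Without mouse 9 the log2 fold change was -5.90 and the adjusted p 0.0109. Without any other single mouse (1, 3, 4, 5, 6, 7, 10, 11, 12, 13 or 14) it stayed between -5.88 and -5.15, but the adjusted p was between 0.0518 and 0.0939, so that the call was kept in 1 of 12 such fits. Without mice 6, 7 and 14, whose dVenus- pools held *Arc*, it was -5.38 ± 1.69 (SE, n = 9 mice) with an adjusted p of 0.244 in edgeR, and the call was lost. A fit without the mouse as block gave -2.76 with an adjusted p of 0.197. DESeq2, which called 16.8% of all genes, gave -5.50 with an adjusted p of 3.1e-09, and the newer quasi-likelihood method of edgeR, which called 422 genes or 4.35% of those tested (2.84% lower), gave -4.13 with an adjusted p of 0.0042. The sample IDs of the FC mice begin with 3 different prefixes, taken here as 3 batches of 2, 4 and 6 mice, and *Bhlhe40* was lower in dVenus+ cells of 2 of 2, 4 of 4 and 5 of 6 mice, with mean differences of -5.07, -5.22 and -2.34 on the log2(CPM + 1) scale. The fit of the 4 mice alone gave a log2 fold change of -7.00 (adjusted p = 0.641) and that of the 6 mice alone -3.79 (adjusted p = 0.732), both with edgeR. *Bhlhe40* lies at chr6:108660629-108666925 on the + strand (mm10), and 118 of its exon bases are shared with *0610040F04Rik* on the opposite strand. The library kit does not mark strand, so reads of these bases cannot be told apart. The authors' counts hold a separate entry for reads that fit several genes, so such reads may be counted for neither.

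**Figure D1:**
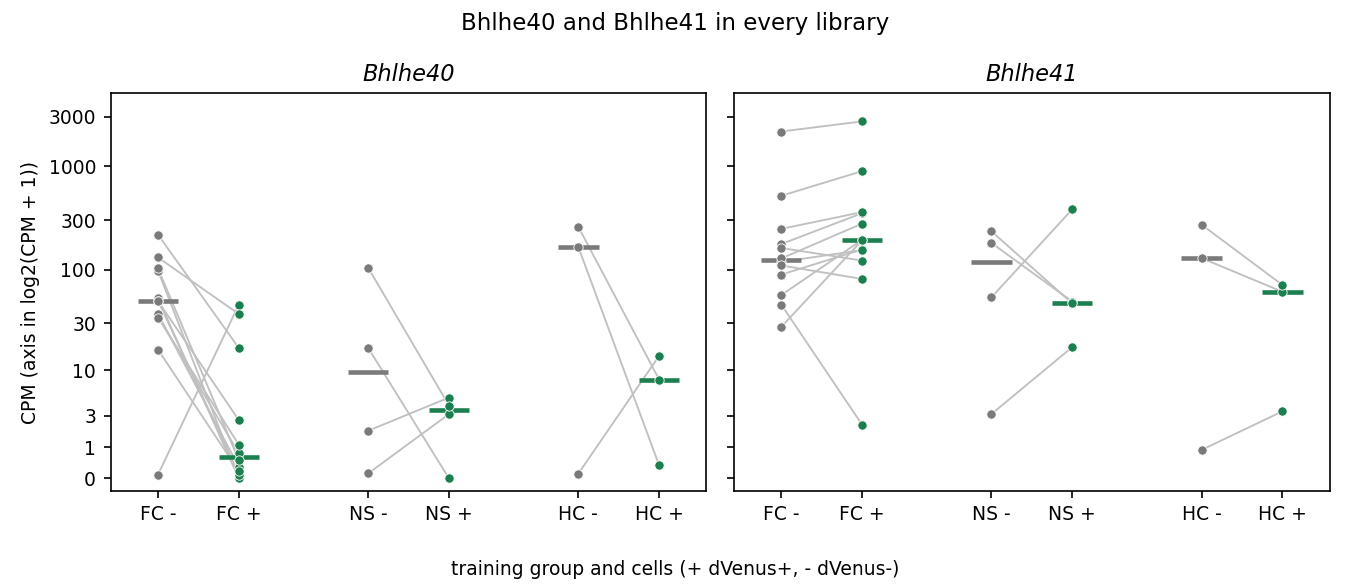
CPM of *Bhlhe40* (left) and *Bhlhe41* (right) in every library, on an axis spaced as log2(CPM + 1). Gray points are dVenus- and green points dVenus+ libraries in each training group, thin lines join both pools of a mouse, and thick bars are medians. For *Bhlhe40* the lines of 11 of 12 FC mice run downward, from a median of 49.9 to one of 0.619 CPM, and that of mouse 9 runs upward.

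The paralog *Bhlhe41*, which codes for the E-box repressor closest to BHLHE40, had a fold change of the other sign and was not called. It ran from 2.28 to 2697 CPM in FC dVenus+ libraries (median 194) and from 27.5 to 2153 CPM in dVenus- libraries (median 124). The groups overlapped over almost their whole range, and *Bhlhe41* was higher in the dVenus+ pool of 9 of 12 mice. For *Bhlhe41* the fit gave a log2 fold change of 0.82 ± 0.40 (SE, n = 12 mice) and an adjusted p of 0.398 in edgeR, which does not show that the cells had the same level. In every FC library it had at least 10 counts, unlike *Bhlhe40*.

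Levels of different genes were compared per kilobase of exon, as CPM per kb. Exon lengths came from GENCODE M21, while the authors counted on NCBI transcripts, so the lengths may differ from those the counts rest on. In FC dVenus- cells *Bhlhe40* stood at rank 5 of the 10 genes with a median of 15.8 CPM per kb, after *Cry2* (35.4), *Nr1d1* (25.4), *Bhlhe41* (19.8) and *Per3* (19.7), and before *Arntl* (10.5), *Per1* (9.27), *Per2* (2.12), *Clock* (1.77) and *Cry1* (0.159). In FC dVenus+ cells *Bhlhe40* stood at rank 10, the lowest, with a median of 0.196 CPM per kb. *Cry2* (48.5) and *Bhlhe41* (31.0) were the highest there, followed by *Arntl* (10.8), *Per1* (7.94), *Per3* (6.19), *Nr1d1* (5.56), *Cry1* (4.35), *Clock* (2.71) and *Per2* (2.19). Between neighbors in either order the ranges over the 12 libraries overlapped, so single steps of the order were not larger than the spread.

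Among the genes that close the feedback loop, *Per3* and *Cry1* had the largest differences, in opposite directions, and neither was called. *Per3*, a period gene whose protein is less needed for the rhythm than those of *Per1* and *Per2*, ran from 0 to 130 CPM in FC dVenus+ libraries (median 37.1) and from 31.5 to 338 CPM in dVenus- libraries (median 118). It was lower in dVenus+ cells of 9 of 12 mice, and 4 of 12 dVenus+ libraries had 3 counts or fewer while every dVenus- library had at least 10. The log2 fold change was -2.53 ± 1.07 (SE, n = 12 mice), with p = 0.0279 and an adjusted p of 0.291 in edgeR. On log2(CPM + 1) the mean difference was -2.84 ± 2.79 (SD, n = 12; exact sign-flip permutation p = 0.00488), and it was -6.32, -1.43 and -2.62 in the 3 batches. *Cry1*, a strong repressor of CLOCK and BMAL1, ran from 0 to 42.7 CPM in dVenus+ (median 13.2) and from 0 to 154 CPM in dVenus- libraries (median 0.481). At least 10 counts were found in 10 dVenus+ and 5 dVenus- libraries, and *Cry1* was higher in the dVenus+ pool of 9 mice, lower in 2 and at 0 in both pools of 1. Mouse 9 again went the other way, with the highest *Cry1* level of all dVenus- libraries. The log2 fold change was 3.62 ± 1.47 (SE, n = 12 mice; p = 0.0238, adjusted p = 0.272 in edgeR), and without the mouse as block it was -0.31. The mean difference was 1.54 ± 2.24 (SD, n = 12) on the log2(CPM + 1) scale, with an exact sign-flip permutation p of 0.0410, and 4.26, 1.85 and 0.44 in the 3 batches. DESeq2, with its larger share of calls, called both *Per3* (adjusted p = 0.0049) and *Cry1* (adjusted p = 0.00068).

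*Per1*, *Per2* and *Cry2* had fold changes below 1 on the log2 scale and were not called. *Per1*, the period gene most quickly induced by light and by activity, had medians of 44.6 CPM in dVenus+ and 52.1 in dVenus- FC libraries and was higher in dVenus+ cells of 6 of 12 mice. *Per2*, which with *Per1* carries the negative limb, had medians of 12.8 and 12.3 CPM and was also higher in 6 of 12. *Cry2*, the second cryptochrome, was the most abundant of the 10 genes per kilobase in both cell types, with medians of 211 CPM in dVenus+ and 154 CPM in dVenus- libraries. It was higher in dVenus+ cells of 9 of 12 FC mice, which included 6 of 6 mice of 1 batch and 1 of 2 and 2 of 4 of the others. The log2 fold changes were 0.79 ± 0.82, 0.90 ± 1.6 and 0.64 ± 0.53 (SE, n = 12 mice; adjusted p in edgeR 0.776, 0.898 and 0.690), and in each gene the values of both cell types overlapped. That of *Per2* turned to -0.12 without mice 3 and 5, whose dVenus+ libraries had few reads. *Cry2* shares 149 exon bases with *D930015M05Rik* on the opposite strand.

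The activators were not called either. *Arntl*, the partner of CLOCK, had 33.4 CPM in dVenus+ and 32.4 in dVenus- FC libraries, with ranges of 0 to 123 and 0.563 to 142 CPM. *Clock* had 26.9 and 17.5 CPM, with ranges of 0.0897 to 108 and 0 to 94.1 CPM. *Arntl* was higher in the dVenus+ pool of 4 of 12 mice and *Clock* in 6 of 12. Their log2 fold changes, -0.41 ± 1.18 and 0.73 ± 1.14 (SE, n = 12 mice; adjusted p = 0.945 and 0.877 in edgeR), had errors larger than the differences themselves.

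*Nr1d1*, the repressor of *Arntl* in the second loop, was lower in dVenus+ cells of 11 of 12 FC mice. It ran from 0 to 52.7 CPM in dVenus+ libraries (median 15.1) and from 15.1 to 171 CPM in dVenus- libraries (median 69.1). Of the dVenus+ libraries 4 had 3 counts or fewer, all dVenus- libraries had at least 10, and 6 dVenus+ libraries lay under the lowest dVenus- library. The mouse that went the other way was mouse 11 (52.7 against 41.7 CPM), not mouse 9. The log2 fold change was -2.74 ± 1.00 (SE, n = 12 mice) with p = 0.0130 and an adjusted p of 0.204 in edgeR, so that *Nr1d1* was not called, nor in any of the 12 fits without 1 mouse. The mean difference on log2(CPM + 1) was -2.91 ± 2.42 (SD, n = 12; exact sign-flip permutation p = 0.000977), and -4.96, -4.12 and -1.42 in the 3 batches. DESeq2 gave -2.71 with an adjusted p of 0.0010. *Nr1d1* shares 263 exon bases with the thyroid hormone receptor gene *Thra* on the opposite strand, and *Thra* was lower in dVenus+ cells of 11 of 12 FC mice as well (medians 36.1 and 143 CPM, log2 fold change -1.89 ± 0.65, SE, n = 12 mice, adjusted p = 0.177 in edgeR). Which of these genes the shared reads came from cannot be told apart, and such reads may be counted for neither.

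**Figure D2:**
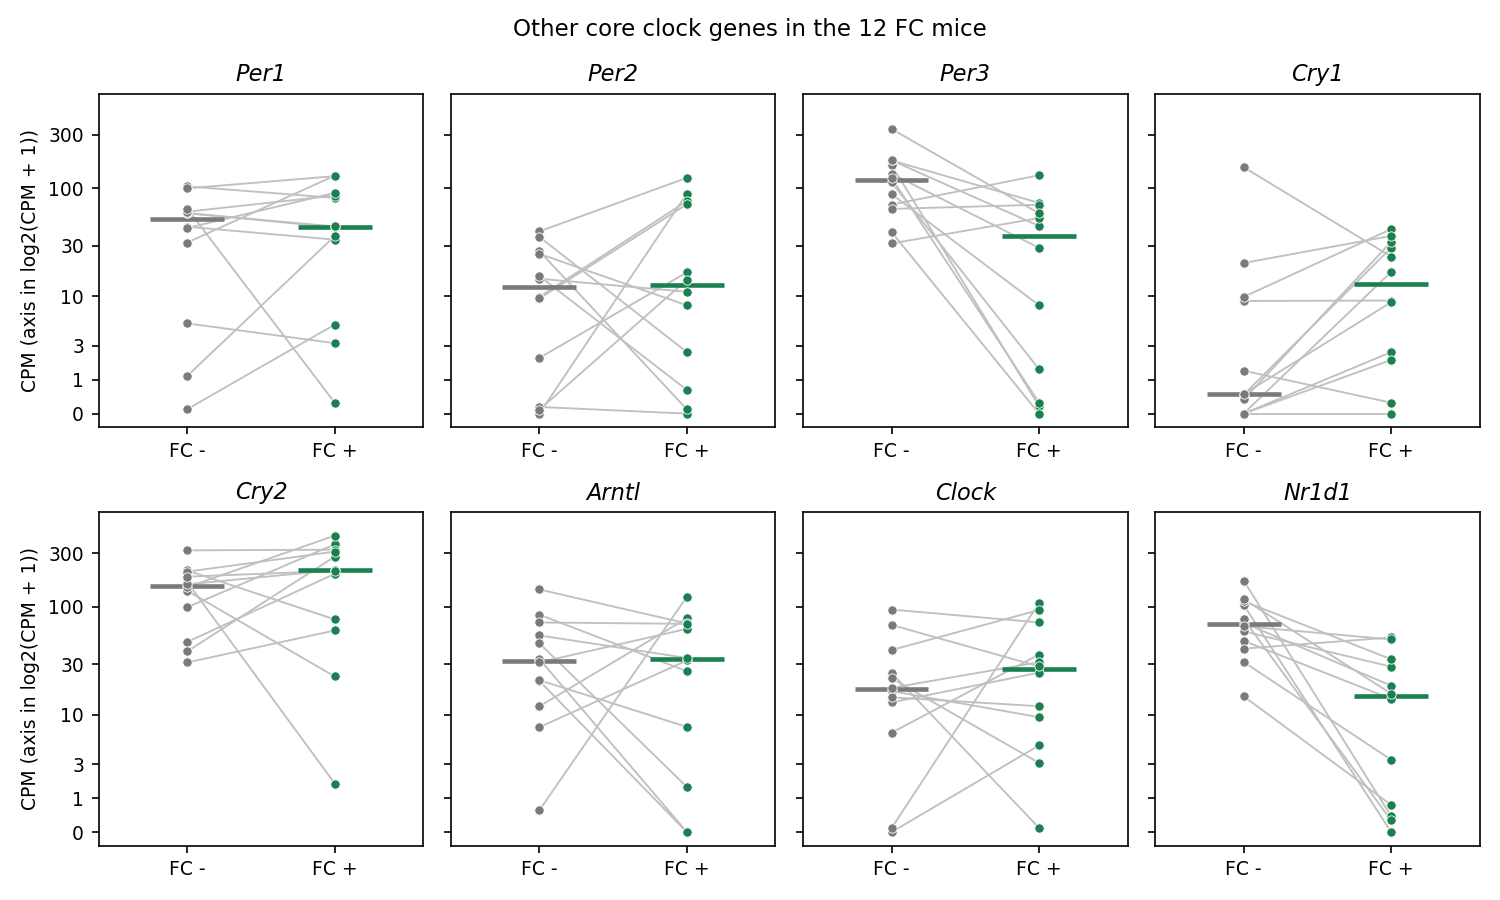
CPM of the 8 genes other than *Bhlhe40* and *Bhlhe41* in the 12 FC mice, on an axis spaced as log2(CPM + 1), with dVenus- pools in gray, dVenus+ pools in green, lines joining both pools of a mouse and thick bars at the medians. Lines run downward in 11 of 12 mice for *Nr1d1* and 9 of 12 for *Per3* and upward in 9 for *Cry1*, and they cross in both directions for *Per1*, *Per2*, *Arntl* and *Clock*.

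The directions were also counted mouse by mouse. *Bhlhe40* and *Nr1d1* were both lower in dVenus+ cells of 10 of 12 FC mice, and *Bhlhe40*, *Nr1d1* and *Per3* were all lower in 7. The mice in which these genes went the other way all differed, so neither joint count could have been lower. They thus add nothing to the counts of each gene alone. *Bhlhe40* was lower while *Cry1* was higher in 9. Of the 10 genes 4 had an unadjusted p under 0.05 in edgeR, 3 of them lower (*Bhlhe40*, *Nr1d1* and *Per3*) and 1 higher (*Cry1*), against 12.8% of all genes tested, 8.58% on the lower and 4.17% on the higher side. Log2 fold changes were below 0 for 4 of the 10 genes, or 40.0%, and for 56.9% of all 9709 genes. The median was 0.68 over the 10 genes and -0.21 over all genes tested.

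In NS mice *Bhlhe40* had no common direction. Its values in dVenus+ pools of mice 18, 19, 20 and 21 were 0, 4.98, 3.15 and 4.01 CPM, and in the dVenus- pools of the same mice 17.0, 1.87, 0.114 and 104.9 CPM. It was lower in dVenus+ cells of 2 of 4 mice, the groups overlapped, and no dVenus+ value was above 4.98 CPM. The log2 fold change was -0.76 ± 4.47 (SE, n = 4 mice; adjusted p = 1 in edgeR). In HC mice 15, 16 and 17 the dVenus+ pools had 0.335, 14.1 and 7.91 CPM and the dVenus- pools 167, 0.110 and 261 CPM. *Bhlhe40* was thus lower in 2 of 3 HC mice, with values that overlapped and a log2 fold change of -4.09 ± 4.21 (SE, n = 3 mice; adjusted p = 0.984 in edgeR). In both groups 1 dVenus- pool had only 1 count, as in mouse 9 of the FC group. Exact sign-flip tests cannot give less than p = 0.125 with 4 mice or 0.25 with 3, and both were 0.5 for *Bhlhe40*.

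None of the other members of the loop was called in NS or HC. Of the 10 genes 8 passed the filter on low counts in NS (not *Per3* and *Arntl*) and 6 in HC (not *Per2*, *Per3*, *Cry1* and *Arntl*). With edgeR 0 of the 8 were called in NS, where 0 of 8187 genes were called (0%), and 0 of the 6 in HC, where 2 of 7588 were (0.0264%), and none of the 10 had an unadjusted p under 0.05 in either. Over all genes 384 in NS (4.69%) and 297 in HC (3.91%) had one. DESeq2 called 1 of the 8 genes in NS, where it called 8.13% of all genes, and none of the 6 in HC, where it called 8.24%, and the newer edgeR method called none, where it called 0.0489% of all genes in NS and 0% in HC. The gene called by DESeq2 in NS was *Per2*. In NS mice 18, 19, 20 and 21 it had 27.2, 0, 14.9 and 22.3 CPM in dVenus+ and 0, 6.43, 0 and 0 CPM in dVenus- pools, so that it was higher in 3 of 4 mice (log2 fold change 8.82 ± 4.58, SE, n = 4 mice, adjusted p = 0.991 in edgeR). Counts of *Per2* in HC were found in 1 dVenus+ pool (105.0 CPM, mouse 15) and as 1 count in 1 dVenus- pool.

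*Per3*, lower in most FC mice, was also scarce in the dVenus+ pools of the other groups. In NS dVenus+ pools of mice 18 to 21 it had 0.640, 0.293, 8.93 and 0 CPM, and in dVenus- pools 0, 0.701, 133 and 113 CPM, lower in dVenus+ cells of 3 of 4 mice. In HC it was found in both pools of mouse 15 (1.84 and 37.5 CPM) and in no other. *Nr1d1* had 41.6, 9.08, 39.9 and 2.6 CPM in NS dVenus+ and 32.0, 13.7, 42.6 and 52.4 CPM in NS dVenus- pools, lower in 3 of 4 mice by small steps except in mouse 21. In HC mice 15, 16 and 17 it had 0.837, 18.1 and 18.8 CPM in dVenus+ and 149, 20.7 and 8.31 CPM in dVenus- pools, lower in 2 of 3. Its log2 fold changes were -0.60 ± 2.10 in NS and -0.53 ± 3.37 in HC (SE, n = 4 and 3 mice; adjusted p = 1 and 0.998 in edgeR).

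The remaining genes varied as widely between pools of a group as between cell types. *Cry1* had 38.9, 0, 20.8 and 10.4 CPM in NS dVenus+ and 0, 59.5, 14.8 and 12.7 CPM in NS dVenus- pools, with 2 of 4 mice in each direction. In HC it was found in 1 of 6 pools (13.5 CPM, dVenus+, mouse 17). *Bhlhe41* had 385, 17.3, 49.0 and 47.0 CPM in NS dVenus+ and 53.9, 3.15, 182 and 236 CPM in NS dVenus- pools, again 2 mice in each direction, and in HC 61.1, 3.41 and 71.2 against 130, 0.879 and 273 CPM. *Cry2* ran from 14.4 to 273 CPM in NS dVenus+ and from 0.798 to 152 CPM in NS dVenus- pools, and from 2.68 to 149 and 0.989 to 348 CPM in HC. *Per1* ran from 1.89 to 57.8 and from 0 to 58.7 CPM in NS, and from 0 to 24.5 and 0 to 3.62 CPM in HC. *Clock* ran from 2.24 to 73.5 and from 0.114 to 59.1 CPM in NS, and reached at most 22.9 CPM in HC pools. *Arntl* was found in 3 of 4 dVenus+ and 1 of 4 dVenus- NS pools and in 2 of 3 and 1 of 3 HC pools.

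**Figure D3:**
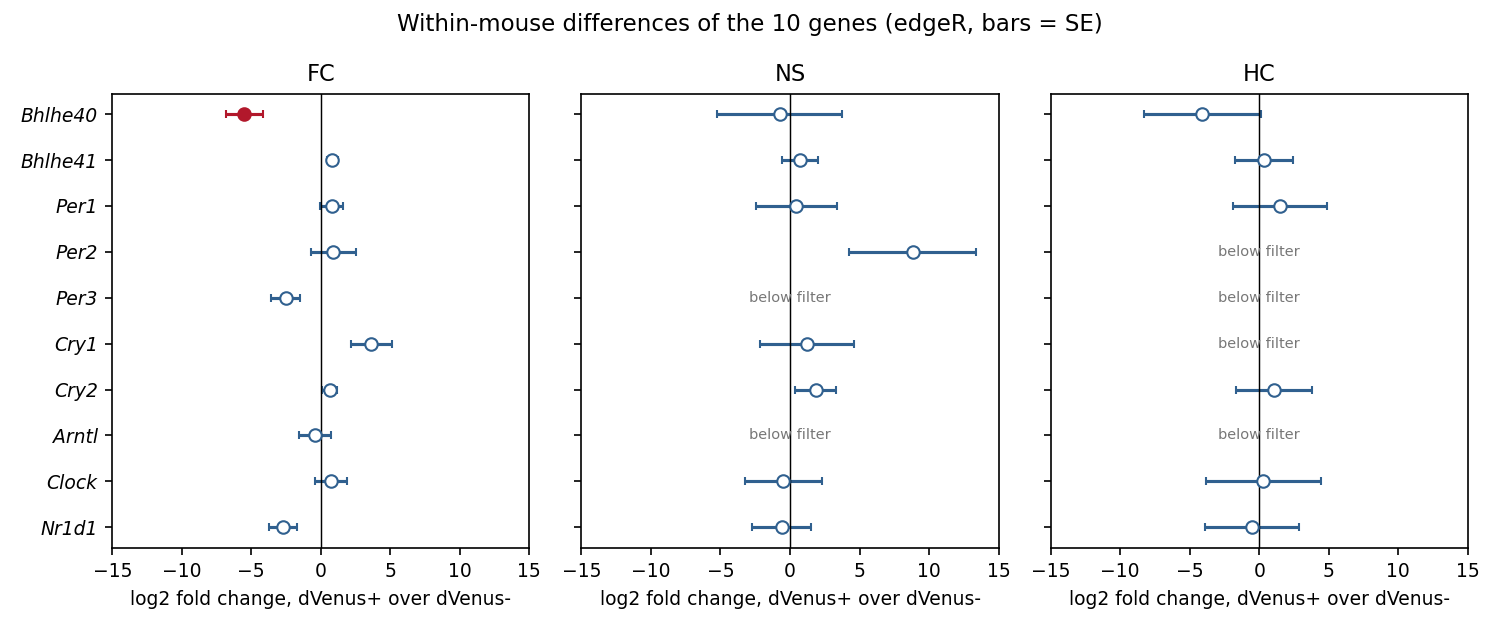
Log2 fold changes of dVenus+ over dVenus- cells within mice for the 10 genes in FC (12 mice), NS (4) and HC (3), from edgeR fits with the mouse as block; bars are standard errors, the filled red point marks the gene called, and genes with too few counts are written as below the filter. *Bhlhe40* is at -5.50 in FC, -0.76 in NS and -4.09 in HC, and the bars in NS and HC are several times longer than in FC.

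Whether the dVenus difference itself depended on training was tested as an interaction in all 38 libraries. For *Bhlhe40* the difference was lower in FC than in NS by -4.77 ± 3.71 on the log2 scale (SE; adjusted p = 0.885 in edgeR) and lower than in HC by -1.59 ± 3.41 (adjusted p = 1), and between NS and HC it differed by 3.17 ± 5.00 (adjusted p = 1). These errors leave room for no difference and for large ones. None of the 10 genes was called in any of the 3 interactions, where 0%, 0% and 0.0071% of 14075 genes were called by edgeR, and none had an unadjusted p under 0.05, against 763 (5.42%), 892 (6.34%) and 688 (4.89%) of all genes. DESeq2 called 2, 1 and 1 of the 10, where it called 8.47%, 11.2% and 9.51% of all genes. So the difference of *Bhlhe40* in FC was not shown to be particular to FC. The sample IDs of FC mice have other prefixes than those of NS and HC mice, so batch and training cannot be told apart between them, and their levels were not compared.

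Levels of NS and HC mice, which share a sample ID prefix, were compared directly. In dVenus+ cells *Bhlhe40* was at medians of 3.58 CPM in NS and 7.91 in HC (log2 fold change NS over HC -1.79 ± 1.99, SE, n = 4 and 3 mice; adjusted p = 1.00 in edgeR), and in dVenus- cells at 9.43 and 167 CPM (-2.0 ± 2.06; adjusted p = 1.00). None of the 10 genes was called in either comparison, where 0 of 8706 and 0 of 8547 genes were called (0%) and 300 (3.45%) and 280 (3.28%) had an unadjusted p under 0.05. Of the 10 genes only *Cry1* in dVenus- cells had one (p = 0.0218, adjusted p = 1.00), with 3 of 4 NS pools between 12.7 and 59.5 CPM and all 3 HC pools at 0. DESeq2 called 1 of the 8 tested in dVenus- cells and none of the 9 in dVenus+ cells, where it called 1.86% and 1.4% of all genes.

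Beyond the 10 genes, 22 further clock genes were read as a list. In FC 16 passed the filter, 2 were called lower (*Dbp* and *Hlf*), none was called higher and 14 were not called, where 1.41% of all genes were called. At an unadjusted p under 0.05, 3 of the 16 were lower and 1 higher, against 8.58% and 4.17% of all genes. Both genes called code for D-box activators of the PAR bZIP family, through which the clock drives output genes, and another relative is *Tef*. *Dbp* ran from 0 to 4.37 CPM in dVenus+ libraries (median 0) and from 2.02 to 25.2 CPM in dVenus- libraries (median 7.40). It was at 0 in 9 of 12 dVenus+ pools and was lower in dVenus+ cells of 12 of 12 mice. At least 10 counts were found in 2 of 12 dVenus+ pools and in every dVenus- pool. *Dbp* thus passed the filter on low counts through the dVenus- pools, where it was high. In the fit *Dbp* had a log2 fold change of -6.61 ± 1.34 (SE, n = 12 mice; adjusted p = 0.0154 in edgeR), and it was called in 12 of 12 fits without 1 mouse (adjusted p 0.0075 to 0.0491). It was called in 5 of 10 other fits. Its adjusted p was 0.0516 without a filter on low counts, 0.0894 without mice 3 and 5, 0.157 without mice 6, 7 and 14 (log2 fold change -5.85), and 0.633 and 0.589 in the batches of 6 and 4 mice alone. *Hlf* ran from 0.229 to 145 CPM in dVenus+ (median 4.46) and from 48.2 to 284 CPM in dVenus- libraries (median 119), also lower in 12 of 12 mice. In the fit *Hlf* had a log2 fold change of -3.69 ± 0.84 (SE, n = 12 mice; adjusted p = 0.0326 in edgeR). *Hlf* lost its call without mouse 1, 3, 5, 6, 7, 12 or 14 (adjusted p up to 0.0773), without mice 6, 7 and 14 (log2 fold change -2.95, adjusted p = 0.202) and without the mouse as block (log2 fold change -2.17, adjusted p = 0.132).

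*Tef*, at medians of 49.9 CPM in dVenus+ and 228 CPM in dVenus- FC libraries, was lower in dVenus+ cells of 10 of 12 mice and was not called (log2 fold change -1.45 ± 0.48, SE, n = 12 mice; adjusted p = 0.159 in edgeR). *Bhlhe40* and *Tef* were both lower in 10 of 12. In NS and HC *Dbp* was below the filter. It was at 0 in both pools of 3 NS mice and higher in the dVenus+ pool of mouse 21 (8.26 against 3.33 CPM), and in HC it was lower in 2 mice and higher, by 1 count against 0, in 1. *Hlf* was lower in dVenus+ cells of every mouse in all 3 groups. In NS mice it had 6.49 to 104 CPM in dVenus+ and 128 to 264 CPM in dVenus- pools, lower in 4 of 4. In HC it had 11.8 to 71.2 against 95.2 to 219 CPM, lower in 3 of 3. The share of all genes whose ranges also separate in so few pools was not counted. The log2 fold changes of *Hlf* there were -2.22 ± 1.06 and -1.01 ± 1.65 (SE, n = 4 and 3 mice; adjusted p = 0.991 and 0.984 in edgeR), and the interactions FC minus NS (-1.52 ± 1.41) and FC minus HC (-2.87 ± 1.53) had adjusted p of 0.901 and 0.770. In all 3 batches of the FC group *Dbp* and *Hlf* were lower in every mouse. The summed level of the granule cell markers was lower in the same pools, though *Pdzd2* among them had a log2 fold change above 0 in all 3 groups. The sum was lower in dVenus+ cells of 12 of 12 FC mice, ran from 101 to 287 CPM in dVenus+ against 386 to 1598 CPM in dVenus- pools of NS mice, and from 51.9 to 607 against 461 to 2729 CPM in HC mice. Their part in these differences was not tested.

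**Figure D4:**
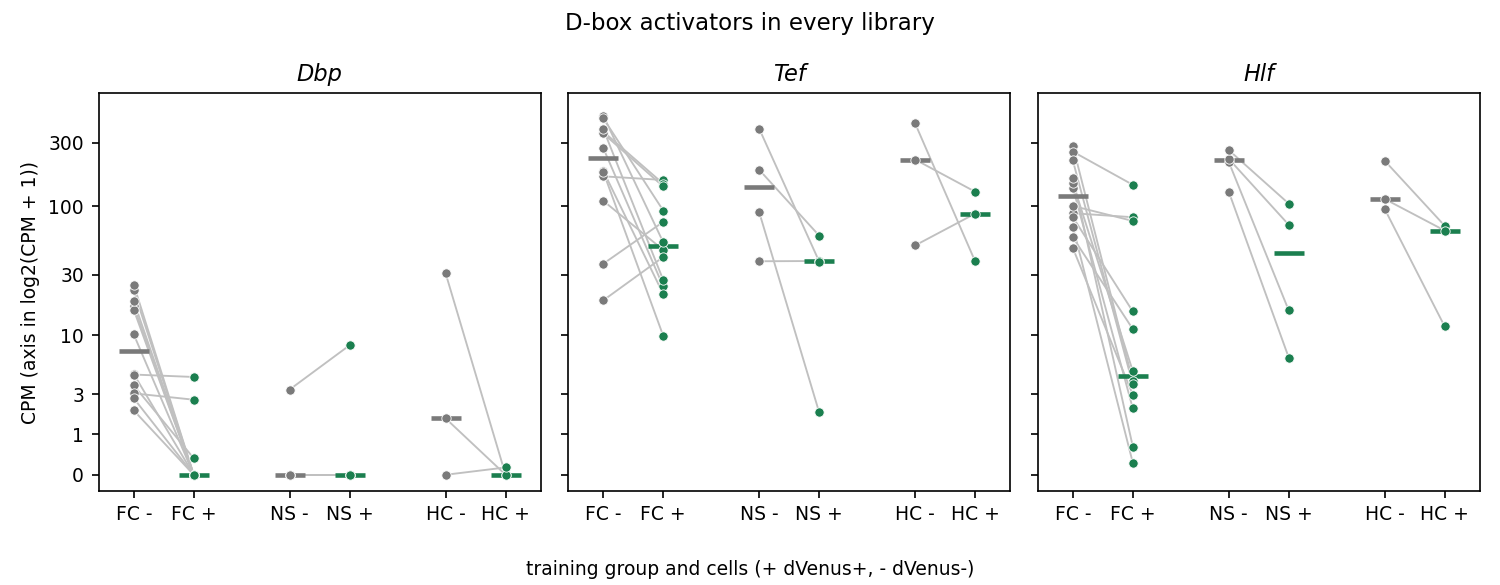
CPM of *Dbp*, *Tef* and *Hlf* in every library, on an axis spaced as log2(CPM + 1), with dVenus- pools in gray, dVenus+ pools in green, lines joining both pools of a mouse and thick bars at the medians. For *Dbp* and *Hlf* all 12 FC lines run downward, and for *Hlf* all 4 NS and 3 HC lines do too.

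The factors that oppose the D-box activators or share the sites of *Nr1d1* had wide errors. *Nfil3*, the D-box repressor, had medians of 43.5 and 22.1 CPM in FC dVenus+ and dVenus- pools (log2 fold change 0.62 ± 1.43, SE, n = 12 mice; adjusted p = 0.927 in edgeR). *Nr1d2*, the paralog of *Nr1d1*, had 0.756 and 21.3 CPM and was lower in dVenus+ cells of 8 of 12 mice (-3.93 ± 2.04; adjusted p = 0.451 in edgeR). *Rorb*, an activator at the same sites, had 11.9 and 4.01 CPM and was higher in 8 of 12 mice (1.90 ± 1.09; adjusted p = 0.507 in edgeR), and *Rora* was below the filter, at medians of 0.151 and 0.0823 CPM. In NS and HC 12 of the 22 genes passed the filter in each group and 0 were called by edgeR, 0 at an unadjusted p under 0.05. DESeq2 called 8 of the 16 in FC, where it called 16.8% of all genes, and 0 in NS and HC, where it called 8.13% and 8.24%. Over the 16 genes in FC the median log2 fold change was -0.74, against -0.21 over all genes, and 10 of 16 were below 0 (62.5%, against 56.9% of all genes).

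**Figure D5:**
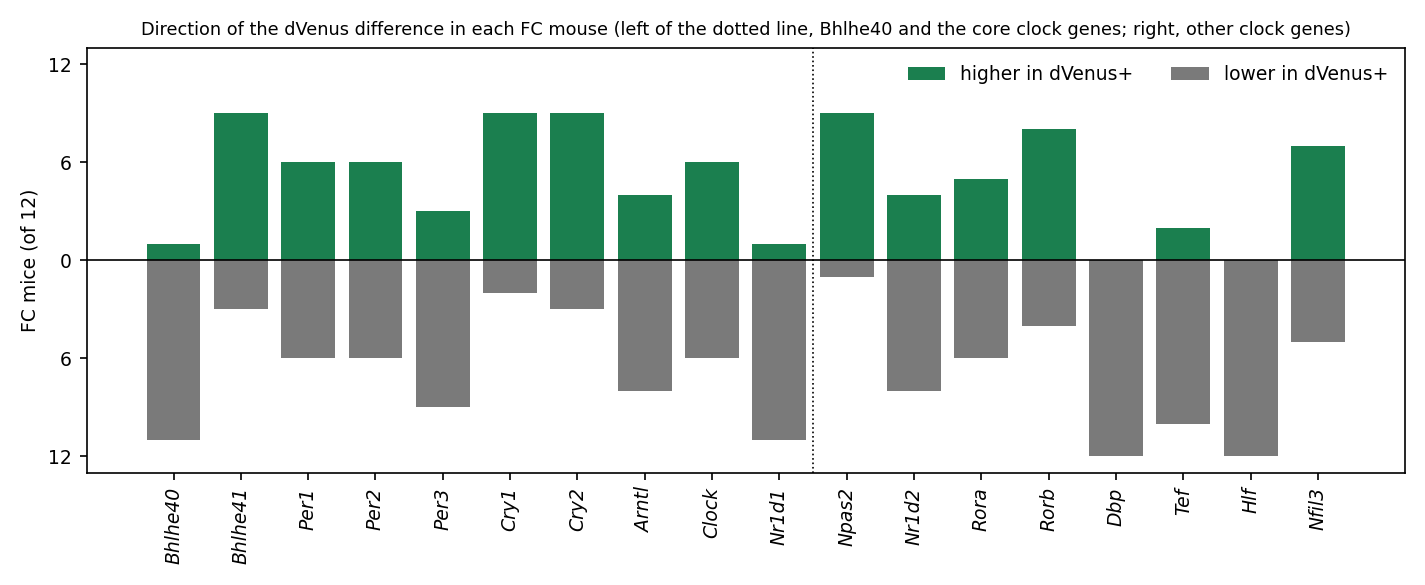
Number of FC mice (of 12) in which each of the 10 genes and 8 of the other clock genes was higher (green, upward) or lower (gray, downward) in dVenus+ than in dVenus- cells; mice with equal values, which are those at 0 in both pools, are not drawn. *Bhlhe40*, *Nr1d1*, *Dbp* and *Hlf* were lower in 11, 11, 12 and 12 mice, and *Cry1* and *Npas2* were each higher in 9.

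The genes most like *Bhlhe40* over all 38 libraries were described by the Spearman correlation of log2 CPM, among 9708 other genes tested in FC. The highest was *Tef*, at 0.712, followed by *Lgi3* (0.697), *Pfkl* (0.665), *Camkv* (0.650) and *Me3* (0.648), and the lowest were *Kif5b* (-0.620), *Prrc2c* (-0.616), *Spry2* (-0.615), *Pcdh8* (-0.604) and *Ntan1* (-0.602). The median over all genes was 0.0727. Of the clock genes named with *Bhlhe40*, *Nr1d1* was the most like it (0.491, above 98.2% of genes) and *Cry1* the least (-0.545, above 0.144%), with *Arntl* at 0.198, *Per3* at 0.153, *Cry2* at 0.110, *Clock* at -0.0799, *Bhlhe41* at -0.150, *Per2* at -0.168 and *Per1* at -0.189. The 38 points share cell type, mouse and batch in pairs or groups, so these values describe the libraries and carry no test.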

How the data were processed

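RNA of 38 pools of 10 cells was amplified with Smart-seq2 and sequenced. The deposited counts are whole reads per gene, made by the authors with TopHat2 2.0.13 on mm10 and HTSeq 0.6.0 on NCBI transcripts, per the labels and methods. The files held 23420 genes, and 5 entries that name no gene were left out. Reads outside genes made up 16.4% to 59.7% of a library's uniquely aligned reads. The library kit does not mark strand.

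Groups and mouse numbers came from the labels. Genes with at least 10 counts in as many libraries as a cell type had mice were kept. dVenus+ was compared with dVenus- in each training group with edgeR 4.0.16 (R 4.3.3), TMM scaling, the quasi-likelihood test and the mouse as block, because both pools came from the same animal. Deviations of both pools of a mouse correlated at a median of 0.0382 in FC (3 of 12 mice over 0.1), -0.0167 in NS and 0.0283 in HC. Genes at a Benjamini-Hochberg adjusted p under 0.05 and an absolute log2 fold change over 1 were called, for interactions at the adjusted p alone. Tests were two-sided. Exact sign-flip permutation tests used log2(CPM + 1). CPM was computed from counts on genes. Total counts ran from 1352288 to 18394761 per library, and their number limits precision at low counts. A library is a pool of cells, and the mouse is the unit of replication. With the mouse as block, and in sign-flip tests, p-values measure how the difference within mice varied from mouse to mouse. Those of NS against HC levels measure the spread of levels between mice.

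Genes named were the 10 members, the called, D-box and nuclear receptor genes of the 22 others, *Arc*, and the 5 most and 5 least like *Bhlhe40*. *Npas2*, *Thra* and the marker genes given with values were named after their values were seen. The members and lists were chosen with earlier results of these data known. Alternatives were DESeq2 1.42.0 (test and size factors), no filter, the authors' whole table of genes, no block, leaving out mice or batches, and, chosen after seeing the data, edgeR's newer quasi-likelihood method and a fit without FC mice 6, 7 and 14. The fit was tested on simulated data.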

Additional observations from a re-analysis of the deposited data

Results flagged for a closer look

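In 6 of 20 groups of 4 NS libraries, 1 library stood far from the other 3. For normal values chance sets about 1 in 20 apart, but CPM values are skewed and often 0, so that rate does not hold here and the number of such groups is no result. These were *Bhlhe40* in dVenus- cells of mouse 21 (104.9 CPM, next 17.0), *Bhlhe41* in dVenus+ cells of mouse 18 (385 CPM, next 49.0) and *Clock* in dVenus+ cells of the same mouse (73.5 CPM, next 10.5). The others were *Per3* in dVenus+ cells of mouse 20 (8.93 CPM, next 0.640) and, in dVenus- cells of mouse 19, *Per2* (6.43 CPM) and *Arntl* (3.62 CPM), each at 0 in the other 3 mice, where any count would stand apart.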

How the results depend on the processing

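Single-gene fold changes kept direction and side of the threshold in 417 of the alternatives computed, were no longer past it in 33, were newly past it in 9 and turned in 30, none of the turned ones called. For the mean difference of log2(CPM + 1) the threshold was an unadjusted p under 0.05 in the exact sign-flip test, not that of a call. By this measure alone *Per3*, *Cry1*, *Nr1d1* and *Tef* in FC were each counted once as newly past it. Where not stated, the cause was not tested. The number of the 10 genes called in FC was 4 by DESeq2, 0 without the mouse as block, 0 in either larger batch alone, 0 without mice 3 and 5, 0 without mice 6, 7 and 14, and 0 to 1 without 1 mouse. For the other clock genes it was 8 by DESeq2, 1 without a filter, 1 without the block, 0 in either batch, 0 without mice 3 and 5, 0 without mice 6, 7 and 14, and 1 to 2 without 1 mouse. Over all genes in FC it was 1635 by DESeq2, 422 by edgeR's newer method, 0 and 3 in the batches, 49 without mice 3 and 5, 45 without mice 6, 7 and 14, and 56 to 118 without 1 mouse. In NS DESeq2 called 1 member and 666 genes, size factors 1, no filter 13, the genes of the authors' table gave 12, the newer method 4, and fits without 1 mouse 0 to 12. In HC the counts were 625 by DESeq2, 0 with size factors, 5 without a filter, 5 on the genes of that table, 0 by the newer method, 0 without the block and 2 to 3 without 1 mouse. For interactions DESeq2 called 2 members, 1 other clock gene and 1192 genes (FC minus NS), 1, 2 and 1583 (FC minus HC), and 1, 1 and 1339 (NS minus HC, where the newer method called 0). For NS against HC levels it called 110 genes in dVenus+ cells, and 1 member and 144 genes in dVenus- cells.

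Log2 fold changes turned in FC for *Per2* (-0.52 in the batch of 6 mice, -0.12 without mice 3 and 5), *Cry1* (-0.31 without the block), *Cry2* (-0.27 in the batch of 4) and *Arntl* (0.032 without the block, 1.17 in the batch of 6, 0.14 without mice 6, 7 and 14). In NS *Cry1* turned to -0.45 without the block and -0.10 in the log2(CPM + 1) mean. In HC *Bhlhe41* turned to -0.028 with the newer method, -0.72 without the block and -0.59 in that mean, *Cry2* to -0.22 and -0.99 in the latter settings, and *Clock* to -0.16 in the mean. Without 1 mouse NS values ran from -3.40 to 1.5 (*Bhlhe40*), -0.81 to 1.81 (*Per1*), -0.32 to 2.85 (*Cry1*), -1.55 to 0.51 (*Clock*) and -1.14 to 0.0093 (*Nr1d1*), and HC values from -6.06 to 1.26 (*Bhlhe40*), -0.69 to 1.26 (*Bhlhe41*), -1.40 to 3.77 (*Per1*), -2.57 to 3.09 (*Cry2*), -2.86 to 3.73 (*Clock*), -2.92 to 1.06 (*Nr1d1*) and -1.30 to 0.57 (*Tef*).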
